A study of Mus musculus with 2 samples.

Results

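Of the 5035 autosomal binding sites of the thyroid hormone receptor TRα1 (TRBS) in brown adipose tissue, 827 (16.4%, 95% Wilson interval 15.4 to 17.5) lay more than 100 kb from the nearest protein-coding transcription start site (TSS). They are called distant TRBS here. Their summit, the position of the highest pileup of sequenced fragments, was measured to the 5′ end of each coding gene record of the GENCODE annotation of the mouse genome GRCm38 (mm10), and binding strength was not used to choose them. The deposited list held 5107 TRBS in all. They were called in 1 chromatin immunoprecipitation (ChIP) library against 1 input library, both from brown adipose tissue of C57BL/6J male mice aged 8 to 12 weeks. A GS-tagged TRα1 was expressed in brown adipocytes only, so the sites describe the tagged receptor in that cell type. All animals received propylthiouracil, a blocker of thyroid hormone synthesis, in the food for 2 weeks and then thyroid hormone during 24 h. These 2 libraries have no replicate, and libraries without hormone were not analysed here, so no difference between conditions was tested.

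Thyroid hormone receptors bind DNA mostly as heterodimers with the retinoid X receptor, and the element best known for this is DR4, a direct repeat of AGGTCA half-sites with a spacer of 4 bp. The hormone T3 switches the bound receptor from recruiting corepressors to recruiting coactivators. Enhancers can act on promoters over long distances, and long intergenic stretches, called gene deserts, often hold enhancers of developmental regulators. Long noncoding RNA (lncRNA) genes are also frequent in such stretches, and a binding site does not by itself tell which gene it serves.

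The following 8 stretches carry the DR4 elements of the 8 strongest distant TRBS whose best DR4 differed from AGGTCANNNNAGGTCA by at most 1 of its 12 half-site bases. They were chosen for their match and are shown as near-consensus copies, each with 1 mismatch. Each was read from the RefSeq copy of GRCm38 in the direction of the element with 12 bases on either side, and capitals mark the half-sites.
TRBS near Kif2a, chr13:107371996-107372035, plus strand: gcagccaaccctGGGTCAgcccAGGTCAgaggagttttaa
TRBS near Celf2, chr2:6966516-6966555, minus strand: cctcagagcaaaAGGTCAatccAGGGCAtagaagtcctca
TRBS near Ppargc1a, chr5:51040953-51040992, minus strand: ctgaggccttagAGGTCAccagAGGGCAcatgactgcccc
TRBS near Cops8, chr1:90424257-90424296, plus strand: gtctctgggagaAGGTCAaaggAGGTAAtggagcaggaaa
TRBS near Ankrd26, chr6:118689055-118689094, plus strand: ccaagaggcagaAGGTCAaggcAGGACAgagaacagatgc
TRBS near Zfp637, chr6:117555054-117555093, minus strand: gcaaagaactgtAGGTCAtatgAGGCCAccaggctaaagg
TRBS near Irs2, chr8:10586591-10586630, plus strand: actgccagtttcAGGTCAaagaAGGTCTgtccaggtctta
TRBS near Mgmt, chr7:136494392-136494431, plus strand: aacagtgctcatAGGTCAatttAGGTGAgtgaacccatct

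The element near Kif2a was 7.5 bp from the summit of a TRBS with 66 ChIP fragments, 350 kb from the TSS. The element near Celf2 was also 7.5 bp from its summit, in a TRBS with 59 fragments in an intron of Celf2, 543 kb from its TSS but 81.5 kb from another coding transcript start. The site near Ankrd26 also had such a start within 100 kb. The TRBS near Ppargc1a, which encodes the coactivator PGC-1α of mitochondrial biogenesis, had 74 fragments and lay 527 kb away. The element near Irs2 was the exception in position, since it lay 506 bp from the summit of a TRBS with 32 fragments inside the gene Myo16. The 8 TRBS had 31 to 74 fragments, fewer than the 12 highest-scoring distant sites, whose best DR4 had 2 or more mismatches.

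The next windows show what was under the summit at 5 sites that the description turns on. In the first, second and last window capitals mark exact copies of the half-site (AGGTCA or GGGTCA, on either strand), and in the third and the fourth they mark the half-sites of the best DR4.
TRBS downstream of Foxo1, chr3:52622660-52622820, plus strand: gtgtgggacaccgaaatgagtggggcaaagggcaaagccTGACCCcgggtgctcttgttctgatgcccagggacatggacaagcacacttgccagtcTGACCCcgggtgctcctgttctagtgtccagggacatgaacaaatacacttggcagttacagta
TRBS in an intron of Ulk4, chr9:121118240-121118400, plus strand: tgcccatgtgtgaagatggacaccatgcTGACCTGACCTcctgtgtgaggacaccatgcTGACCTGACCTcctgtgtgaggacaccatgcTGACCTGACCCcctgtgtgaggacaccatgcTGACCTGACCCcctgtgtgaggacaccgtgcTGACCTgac
TRBS downstream of Irs2, chr8:10895269-10895429, plus strand: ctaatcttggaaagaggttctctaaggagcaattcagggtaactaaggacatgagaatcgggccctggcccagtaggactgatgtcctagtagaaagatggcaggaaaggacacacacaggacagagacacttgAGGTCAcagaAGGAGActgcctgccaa
TRBS downstream of Dio2, chr12:90580077-90580297, minus strand: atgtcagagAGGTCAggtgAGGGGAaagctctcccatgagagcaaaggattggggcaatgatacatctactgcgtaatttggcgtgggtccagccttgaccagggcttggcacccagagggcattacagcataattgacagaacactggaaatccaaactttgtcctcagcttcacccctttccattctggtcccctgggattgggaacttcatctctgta
TRBS between Nox3 and Arid1b, chr17:4626305-4626365, plus strand: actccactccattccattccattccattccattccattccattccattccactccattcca

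The window of the Foxo1 site held 2 exact half-sites, 58 bases apart in a duplicated stretch, and no DR4 within 2 mismatches. The Ulk4 window held 9 half-sites in a tandem repeat, 4 pairs of them overlapping by a single base. The best DR4 of the Irs2 and Dio2 sites had 2 mismatches and lay 61.5 and 93.5 bp from the summit. The window between Nox3 and Arid1b was a repeat with a period of 5 bases that matched itself over 92.9% of the peak, and it held no half-site.

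Distant TRBS had the same median strength as the others in the ChIP library. The number of ChIP fragments at the summit, recovered from the deposited fold and p-value, had a median of 17 (middle 50% from 11 to 27, range 5 to 282) in the 827 distant TRBS and of 17 (11 to 27) in the other autosomal TRBS. A count of 17 fragments has a 95% Poisson interval of 9.90 to 27.2, so sites near the median could not be ranked at this depth. The fold over input had a median of 10.5 in distant TRBS and of 9.79 in the rest. The authors' score, 10 times the −log10 of the q-value, reached the study's threshold of 60 in 701 distant TRBS (84.8%) and in 82.1% of the others. This difference of 2.63 percentage points (95% Newcombe interval −0.208 to 5.21) did not pass Fisher's exact test (adjusted p = 0.15).

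The density of TRBS fell with distance from coding genes (plot of density by distance). Sequence over 100 kb from a coding TSS made up 43.2% of the ungapped autosomes and held 0.798 TRBS per Mb (0.745 to 0.855), against 3.09 (3.0 to 3.19) in the rest, a ratio of 0.258 (0.239 to 0.278). The density was 1.47 per Mb between 100 and 200 kb, 0.658 between 200 and 500 kb and 0.188 beyond 500 kb, and the intervals of these 3 classes did not overlap. The intervals cover counting error only. Between 30 and 100 kb the density was 2.24 per Mb, and within 1 kb of a TSS it was 15.3.

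**Figure D1:**
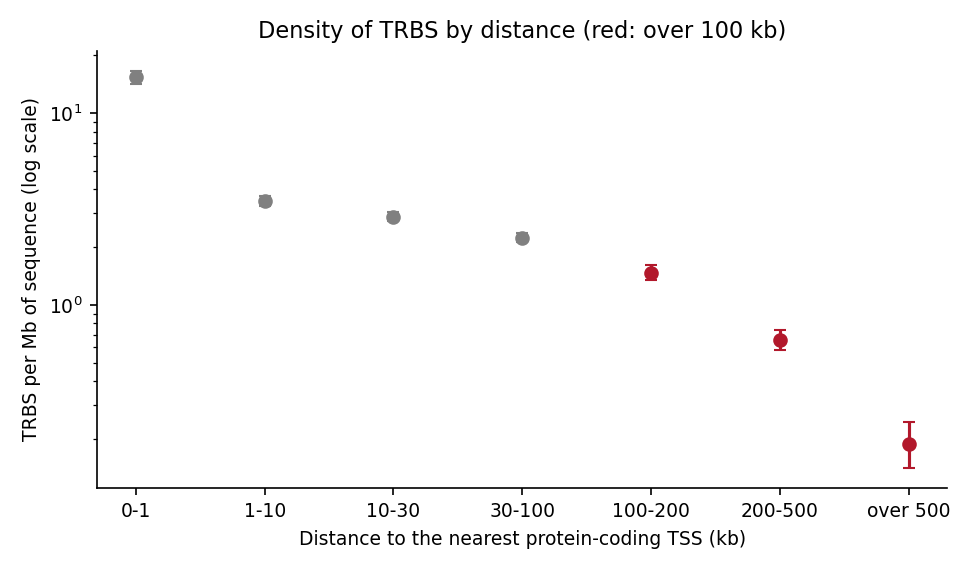
TRBS per Mb of ungapped autosomal sequence (y axis, log scale) by distance to the nearest protein-coding TSS (x axis, kb); bars are 95% Poisson intervals. The density was 2.24 per Mb at 30 to 100 kb and 0.188 per Mb beyond 500 kb.

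The median distance to the nearest coding TSS was 169298 bp. There were 339 distant TRBS between 100 and 150 kb, 168 between 150 and 200 kb, 165 between 200 and 300 kb, 101 between 300 and 500 kb, 44 between 500 and 1000 kb and 10 beyond. Just over the limit were sites near Lbr (100.01 kb, 8 fragments), Parva (100.09 kb, 19 fragments) and Lhpp (100.40 kb, 12 fragments). Just under it were sites near Ephb2 (99.93 kb, 10 fragments), Rgma (99.61 kb, 8 fragments) and Max (99.41 kb, 9 fragments). The distance depends on which starts are counted. A start of another coding transcript lay within 100 kb of 135 distant TRBS (16.3%), a RefSeq coding gene start lay within 100 kb of 30, and 679 were distant by all 3 measures.

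The farthest site lay 1766 kb from Slc39a10 in a gene desert of 4008 kb, with 5 fragments and 72.6% of its bases repeat-masked. The second and the third, 1595 kb from Pik3c3 and 1268 kb from Celf4, shared a desert of 4519 kb and had 16 and 12 fragments, each with a DR4. The fourth, 1243 kb from Sel1l, had 67 fragments at a fold of 35.5, against 5 to 25 at the other sites named with it. Another, 1219 kb from Tmem114 and inside the long gene Rbfox1, which encodes a splicing regulator, had 25 fragments and a DR4, but another coding transcript started 12.6 kb away. Sites beyond 500 kb had a median of 15 fragments, with 70.4% (57.2 to 80.9) at a score of at least 60, against 86.8% (83.6 to 89.5) between 100 and 200 kb.

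Within the distant sequence, TRBS were found inside genes more often than the sequence itself was (plot of location shares). Of the 827 sites, 352 (42.6%, 39.2 to 46.0) lay inside a protein-coding gene, which took 27.6% of the distant sequence, and 125 (15.1%, 12.8 to 17.7) inside a lncRNA gene, which took 8.25%. A further 356 (43.0%) lay between all annotated genes, which took 64.2%. Deserts, defined as intergenic space of at least 500 kb between coding genes, held 243 distant TRBS (29.4%, 26.4 to 32.6) on 59.0% of the distant sequence, and those of at least 1 Mb held 100 (12.1%) on 40.0%. The density was 1.23 per Mb inside coding genes, 1.46 inside lncRNA genes and 0.398 in deserts. These classes also differ in their distance from coding genes, and this part in the difference was not tested.

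**Figure D2:**
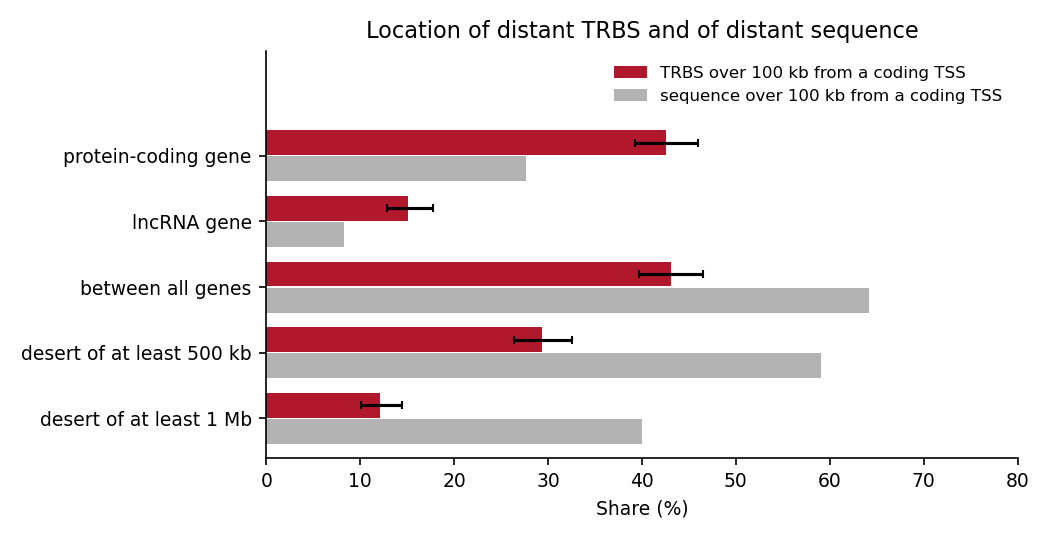
Share (x axis, %) of the 827 distant TRBS (red, with 95% Wilson intervals) and of the distant sequence (grey) in each class of location; the classes overlap. Coding genes held 42.6% of TRBS on 27.6% of the sequence, and deserts of at least 500 kb held 29.4% on 59.0%.

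Inside coding genes, 5 distant TRBS met an exon, and 340 could be placed in an intron of the basic annotation. The records Gm20388 and Fgfr2 span several other genes and give introns of 4384 and 2816 kb. Without the sites placed in these 2 introns, of which 8 also lay within Gse1 but in no intron of its basic transcripts, 327 sites were left, in introns with a median length of 44.2 kb over sites (middle 50% from 17.3 to 107), so that an intron with several sites counts once for each. Of these sites, 84 (25.7%) were in introns of at least 100 kb, and the longest such intron was 542 kb. In 213 of 352 cases the nearest TSS was that of the host gene. The gene record with most sites was Gm20388, with 11, of which 3 were in no other coding gene and 8 were also inside Gse1, with 7 to 54 fragments. Another coding transcript started within 100 kb of 3 of these 11. Tns1, encoding tensin 1 of focal adhesions, followed with 7 sites of 18 to 60 fragments, but another coding transcript started within 100 kb of all 7. Zbtb20, encoding a zinc finger repressor, had 6 sites of 11 to 102 fragments, and another coding transcript start lay near 4 of them. Arhgap26 had 6 sites (11 to 43 fragments) and no such start nearby. Foxn3, Dab2ip and Rgs6 held 5 each, with up to 89, 29 and 18 fragments, and another coding transcript started within 100 kb of 3, 5 and 0 of them.

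The highest-scoring intronic site was the tandem repeat of half-sites in Ulk4, with 139 fragments (Poisson interval 117 to 164) against an input background of 0.609 fragments, on the scale of the ChIP library. The next was in Tbc1d1, a Rab GTPase-activating protein of glucose uptake, with 118 fragments and a fold of 61.9. The third by score was in Esr1, the estrogen receptor α, 102 kb from the TSS of the gene record, with 98 fragments and a DR4 at 12.5 bp from the summit. Another coding transcript started 3.58 kb from it. Those in Zbtb20 (102 fragments), Spon1 (76 fragments) and Asap2 (75 fragments, DR4 at 12.5 bp) followed, and like the site in Tbc1d1, those in Zbtb20 and Asap2 had another coding transcript start within 100 kb. Intronic sites and those outside coding genes had the same median of 17 fragments, and a DR4 was found in 36.3% (31.4 to 41.5) and 34.9% (30.8 to 39.3).

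Of the 601 deserts, 131 (21.8%) held a distant TRBS, and 26 held at least 3, with 115 sites among them. The intergenic space with most distant TRBS was the 629 kb desert between Foxo1, a forkhead factor of insulin signalling, and Cog6, a subunit of a Golgi tethering complex, with 13. Their fragment numbers, from the Foxo1 end, were 8, 24, 50, 10, 25, 53, 28, 25, 142, 10, 130, 45 and 110. Thus 3 of the 12 highest-scoring distant TRBS passing the filter on fold and repeats were in 1 desert (142, 130 and 110 fragments at 354, 418 and 499 kb from the Foxo1 TSS), and only the second of these 3 had a DR4. The site of 142 fragments had a fold of 100 over an input background of 0.430, the lowest in the list. No TRBS lay within 100 kb of the Foxo1 TSS.

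The desert between Cd83 and Jarid2, which encodes a cofactor of Polycomb repressive complex 2, held 8 distant TRBS of 12 to 76 fragments. The desert between Myc and Gsdmc held 8 of 10 to 56 fragments, and that between Nox3 and Arid1b, a subunit of the BAF remodelling complex, held 6 of 10 to 282 fragments. The site of 282 fragments there was the strongest distant TRBS and is the simple repeat shown above, 84.9% of it repeat-masked. The desert between Slc30a5 and Pik3r1, the regulatory subunit of phosphatidylinositol 3-kinase, held 6 of 10 to 19 fragments, and those between Saraf and Dusp4 and between Ctnna3 and Reep3 held 5 each, of 9 to 89 and 12 to 23 fragments. A shorter space of 405 kb between Bcl6, a transcriptional repressor, and Lpp held 9, all of 14 to 42 fragments.

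**Figure D3:**
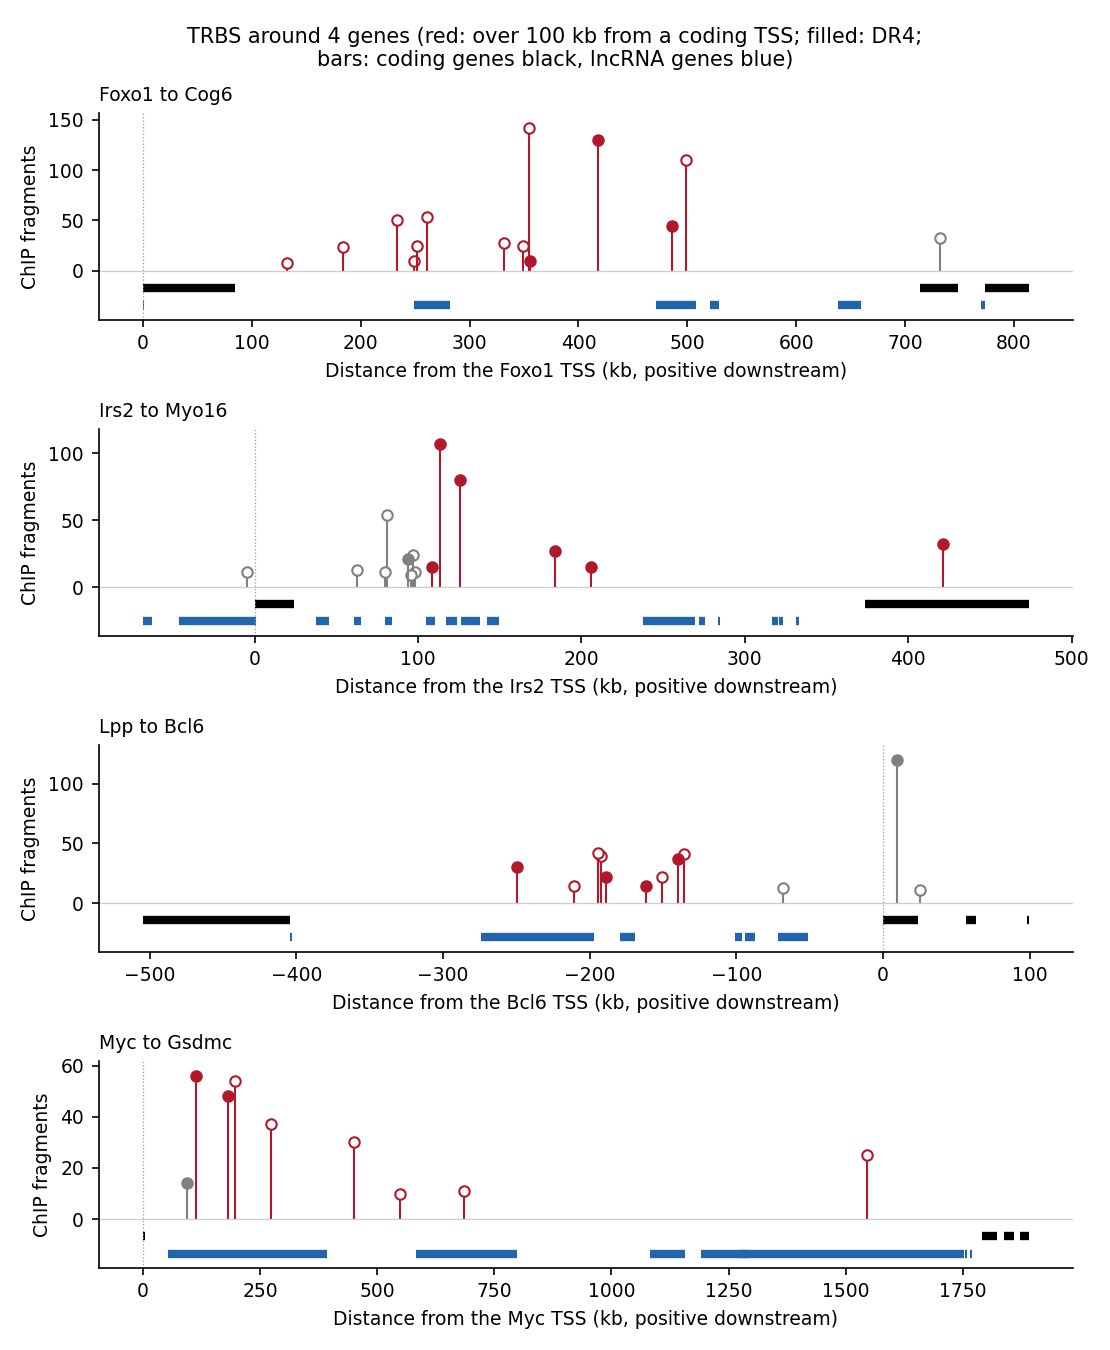
ChIP fragments at the summit (y axis) of each TRBS around 4 genes by distance from the TSS (x axis, kb); red, distant TRBS, grey, others; filled, DR4 within 2 mismatches; bars below, coding genes (black) and lncRNA genes (blue). The 13 sites between Foxo1 and Cog6 had 8 to 142 fragments, and all 6 distant sites nearest to Irs2 had a DR4.

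Irs2, encoding an insulin receptor substrate, differed from Foxo1 in that its TRBS also lay closer. There were 6 distant TRBS, with 15, 107, 80, 27, 15 and 32 fragments at 109, 113, 126, 184, 206 and 421 kb, and 8 more within 100 kb. All 6 distant sites had a DR4, against 1 of 10 nearest to Foxo1. The site of 107 fragments had a fold of 75.5 over a background of 0.430. These genes were chosen for their numbers of sites, so the contrast is a description.

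The 827 distant TRBS had 505 nearest coding genes, of which 337 had 1 site and 85 had at least 3, with 324 sites in all. Those with most were Foxo1 (10), Tns1 (8), Myc (7), Bcl6 (7), Arid1b, Irs2, Tigit, Gse1, Jarid2, Bmper and Pik3r1 (6 each). The 6 sites assigned to the immune receptor gene Tigit were all in introns of Zbtb20, and those of Gse1 were all inside Gse1. The 7 sites nearest to Myc had 10 to 56 fragments at 114 to 685 kb. Of the 505 genes, 112 (22.2%, 18.8 to 26.0) also had another TRBS at most 30 kb away, against 17.3% of all autosomal coding genes, and 264 (52.3%) had none within 100 kb, against 60.2%. These 264 genes were the nearest ones of 396 distant TRBS.

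Single strong sites stood near other genes of thyroid hormone and brown fat biology. Dio2, the deiodinase that makes T3 from its precursor, had a site of 84 fragments (67.0 to 104) at 158 kb, with a fold of 40.6. The space of 582.5 kb between Ppargc1a and Dhx15 held a site of 122 fragments with a DR4, 128 kb from the Dhx15 TSS, its nearest. Ppargc1a was the nearest coding gene of 3 other distant sites, of 13, 13 and 74 fragments at 215, 292 and 527 kb, all with a DR4. Klf9, a factor induced by thyroid hormone in many tissues, had 4 distant sites, of 65, 22, 26 and 9 fragments at 106, 211, 214 and 225 kb, the last 3 inside the neighbouring gene Trpm3. Dio2, Ppargc1a and Klf9 also had 1, 4 and 3 TRBS within 100 kb of their TSS, of which 0, 4 and 2 lay within 30 kb. The remaining sites among the 12 highest-scoring were near the MAP kinase phosphatase Dusp10 (116 fragments), Irf2bp2 (144 fragments, but a fold of 35.9 over a background of 3.04), the lipid phosphatase Plpp3 (121 fragments) and Zfp618 (99 fragments).

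Gene lists put these examples in proportion. Of all autosomal coding genes, 2.43% were the nearest gene of a distant TRBS, and 4.1% had the first coding TSS on either side of one. Of 45 adipogenic and adipocyte transcription regulators, 14 (31.1%) were nearest and 19 (42.2%) flanking. Foxo1, Klf9, Zbtb16, Bcl6, Nfib and Nr3c1 had the highest-scoring sites, with 142, 65, 56, 42, 48 and 40 fragments. Of 26 brown fat and thermogenesis genes, 4 were nearest (Dio2, Ppargc1a, Ebf2 and Prdm16), the last 2 with sites of at most 20 and 16 fragments inside the genes. Ebf2 and Prdm16 encode regulators of brown fat identity. Of 20 genes in a list of thyroid hormone receptors, deiodinases and transporters, which also held the hormone-induced factor Klf9, 2 were nearest (Dio2 and Klf9), and 4 of the 5 sites were those of Klf9. Thrb, which encodes a thyroid hormone receptor, was the only other flanking gene of that list, with a site of 8 fragments and a DR4 inside it, 216 kb from the nearest TSS, that of Nr1d2, and 41.1 kb from another coding transcript start.

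Of 94 developmental transcription factors that often border gene deserts, 19 (20.2%) were nearest and 28 (29.8%) flanking. The highest-scoring were at Hey2 (61 fragments at 124 kb), Sox6 (57 at 194 kb, but 1.39 kb from another coding transcript start), Zeb1 (55 at 226 kb), Nfib (48 at 306 kb), Irx3 (54 at 243 kb) and Bcl11a (28 at 174 kb). The site nearest to Irx3 lay in an intron of another gene, Fto. Of 57 secreted ligands and inhibitors, 7 (12.3%) were nearest, with weaker sites such as Cxcl12 (32 fragments), Angpt1 (29), Vegfa (13) and Fgf14 (50 at a fold of 4.38). Of 38 lipid and glucose metabolism genes, 2 (5.26%) were nearest, Irs2 and the glycolytic regulator Pfkfb3 (71 fragments at 179 kb). All 6 shares were above the background. The lists share members and were not matched to other genes for the amount of sequence around them, so nothing particular to a list is drawn from the counts.

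The 125 distant TRBS inside lncRNA genes fell in 96 such genes, and 9 met a lncRNA exon. Only 19 of the 827 lay within 1 kb of a lncRNA TSS, whereas 241 (29.1%) lay within 30 kb of one, and 389 (47.0%) lay within 30 kb of the TSS of an annotated gene of any kind. Pvt1, the lncRNA gene next to Myc, held 4 sites of 37 to 56 fragments. Gm29904, on the other side of Myc, held 4 of 14 to 61 fragments, and 2610307P16Rik held 4 of 11 to 29. Gm30173, in the Foxo1 desert, held 3 of 10 to 53 fragments, the nearest 0.416 kb from its start. Gm15738 and Gm44127 held 3 each, with up to 39 and 28 fragments, and 2610035D17Rik near Sox9 held 3 of 10 to 11. The highest-scoring site in a lncRNA gene was that of 110 fragments in Gm2447 of the Foxo1 desert, followed by 8030442B05Rik near Pfkfb3 (71 fragments), Gm29904 (61), Pvt1 (56), Gm11210 (68) and a second site in Pvt1 (54).

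Distant TRBS less often had a close neighbour than the others. Another summit lay within 10 kb of 187 (22.6%), against 31.4% of other autosomal TRBS, a difference of −8.76 points (−11.8 to −5.48), which passed Fisher's exact test (adjusted p = 1.7e-06). Against the 1089 intergenic TRBS within 30 kb of a coding TSS the difference was −8.79 points (exact test, adjusted p = 0.00011). The 827 sites formed 726 runs with gaps of at most 10 kb, of which 84 had 2 or more sites and the largest had 5. Distant sequence also held fewer TRBS per Mb (0.798 against 3.09), and fewer neighbours go with fewer sites. The tests therefore do not separate spacing from density, and spacing relative to density was not tested. Neighbouring sites are not independent, so these tests describe the list alone.

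A DR4 within 2 mismatches was present in 294 distant TRBS (35.6%, 32.4 to 38.9), against 5.37% of 1619 flanking windows of equal width, a ratio of 6.62 (plot of motif shares). In the other autosomal TRBS the share was 31.4%, and the difference of 4.16 points (0.668 to 7.76) did not pass Fisher's exact test (adjusted p = 0.051). With only TRBS of a score of at least 60 it was 4.69 points (exact test, adjusted p = 0.044), with a limit of 1 mismatch it was 0.562 points (adjusted p = 0.78), and with only peaks of 45 to 55% GC it was 0.492 points (adjusted p = 0.97). Distant TRBS had a lower median GC content (48.0% against 51.8%). In distant TRBS the share rose with the score from 19.8% (15 to 25.8) in the lowest quartile to 50.2% (43.5 to 57) in the highest, while the median width rose from 346 to 558 bp. The best DR4 lay at a median of 21.5 bp from the summit (middle 50% from 11.5 to 46.3), and 9 sites had a perfect element, 55 one with 1 mismatch and 230 one with 2.

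Most DR4 elements in distant sequence were not inside a TRBS. Of 365 perfect elements there, 10 (2.74%, 1.49 to 4.97) lay in a TRBS, against 49 of 698 (7.02%, 5.35 to 9.16) in sequence nearer to coding genes. With 1 mismatch the shares were 0.837% of 6813 and 2.41% of 12630 elements, and with 2 mismatches 0.294% of 96788 and 0.888% of 150613. Occupied elements were thus rarer in distant sequence at each level of match, as were TRBS in general.

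**Figure D4:**
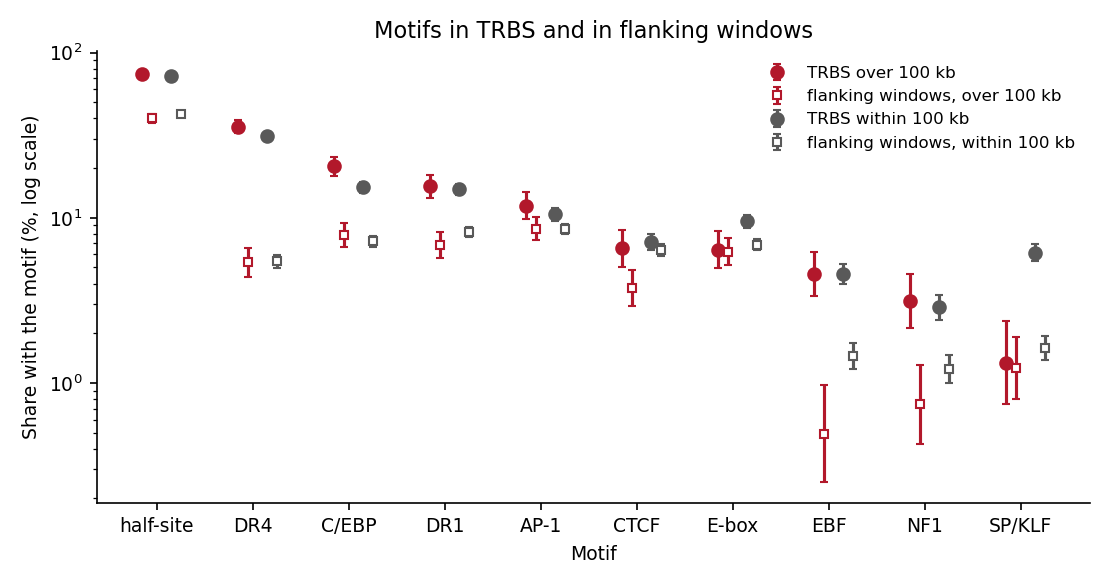
Share (y axis, %, log scale) of TRBS (circles) and of flanking windows of equal width (open squares) with each motif (x axis), for TRBS over 100 kb from a coding TSS (red) and all other autosomal TRBS (grey); bars are 95% Wilson intervals. In distant TRBS DR4 stood at 35.6% against 5.37% in the windows.

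The C/EBP motif, bound by factors of adipocyte differentiation, was found in 169 distant TRBS (20.4%) and in 15.3% of the others. It was searched as TTACGCAAC, TTACGCAAT, TTGCGCAAC or TTGCGCAAT with 1 mismatch. The difference of 5.18 points (2.34 to 8.25) passed Fisher's exact test (adjusted p = 0.0012), as did that against intergenic TRBS within 30 kb (5.38 points, adjusted p = 0.0081). It did not hold among peaks of 45 to 55% GC, where it was 1.65 points (−1.91 to 5.6, exact test, adjusted p = 0.91). The flanking windows of distant TRBS held the motif in 7.84%, a ratio of 2.61.

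Motifs of promoters were rarer in distant TRBS, which were chosen away from coding starts. The SP/KLF motif CCCCGCCCC was in 1.33% against 6.16% (exact test, adjusted p = 1.3e-09), the E-box CACGTG in 6.41% against 9.53% (adjusted p = 0.011), and CpG island-like sequence at 6 summits (0.726%) against 11% (adjusted p = 1.5e-28). CpG islands mark many gene starts. Distant TRBS leave out sites at coding starts by choice, while the other autosomal TRBS held 601 within 1 kb of one. The SP/KLF, E-box and CpG tests were not repeated without those sites. They therefore cannot separate a difference of distant TRBS from the choice, and no conclusion is drawn from their p-values. The differences for the half-site, present in 74.1%, and for the motifs of EBF (TCCCNNGGGA, 4.60%), NF1 (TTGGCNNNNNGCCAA, 3.14%), CTCF (6.53%), AP-1 (TGACTCA or TGAGTCA, 11.9%) and DR1 (AGGTCANAGGTCA, 15.5%) did not pass. The widest of these intervals, that of the half-site, reached from −1.82 to 4.73 points. Of the 28 tests, 10 passed at an adjusted p of 0.05. These included SP/KLF, the E-box and CpG island-like sequence against both other autosomal TRBS and intergenic TRBS within 30 kb. Relative to flanking windows, the ratio in distant TRBS was 9.30 for EBF (8 windows only), 4.24 for NF1, 2.26 for DR1 and 1.86 for the half-site. It was 1.73 for CTCF, 1.38 for AP-1, and 1.03 and 1.08 for the E-box and SP/KLF. The windows had a mean GC content of 43.9%, against 47.7% in the distant peaks. No ratio to flanking windows, those of DR4 and C/EBP included, was matched for GC. Every DR4 and DR1 search covers part of the half-sites, both strands were read, and a match is not proof of a bound element.

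Repeats and known elements completed the description. The summit was in a repeat-masked base at 81 distant TRBS (9.79%), against 8.29% of the others (exact test, adjusted p = 0.30) and 35.4% of the distant sequence. At least 50% of the peak was masked at 49. Among sites that failed the filter on fold and repeats, the highest-scoring after the simple repeat near Arid1b were in introns of Rbm20 (40 fragments, 60.4% masked) and Stau2 (27 fragments, 55% masked). Only 4 distant TRBS met one of the 2214 autosomal functional elements of RefSeq, all of them enhancers tested in transgenic embryos (VISTA), inside Gse1 (35 fragments), Sh3pxd2a (22), the lncRNA gene 9430078K24Rik near Zfp36l1 (13) and Sept9 (9). By chromosome, distant TRBS per Mb of distant sequence ranged from 0.440 (0.290 to 0.640) on chromosome 14 to 1.24 (0.956 to 1.58) on chromosome 13.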

How the data were processed

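Per the submitters' processing notes, the authors mapped paired-end reads to mm10 with Bowtie2 2.3.2.2 and called peaks with MACS2 2.1.1.20160309.6 in 1 ChIP library against 1 input library. The deposited score is 10 times the −log10 q-value, the deposited fold is the ratio of ChIP to background pileup with a pseudocount of 1, and the −log10 p-value, also deposited, is from a Poisson test of that pileup (the column of −log10 q-values was not used). The study's score threshold of 60 was not applied to the deposited list, and all scores were kept. Read totals were not used here, so depth is given as fragments per summit: the whole number that returns the deposited −log10 p within 0.0005, found for 5018 of 5035 autosomal TRBS and all 827 distant ones (9 with more than 1 solution). Intervals cover counting error only, since fragments need not be independent molecules.

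Coordinates are 1-based. Genes came from GENCODE release 21 (GRCm38). Sequences, repeat masking and functional elements came from RefSeq GRCm38.p6. The repeat class of a masked base was not used here. Territory was counted base by base without assembly gaps. Shares have Wilson intervals, differences Newcombe intervals with Fisher's exact test (two-sided), and Benjamini-Hochberg adjustment over 28 tests (14 features, against other autosomal TRBS and intergenic TRBS within 30 kb). Flanking windows lay 2 kb beyond each peak, without windows meeting another peak. CpG island-like meant GC over 50% and observed to expected CpG over 0.6 in 200 bp. Scripts used Python 3.11.15, numpy 2.4.6, scipy 1.17.1, pandas 2.3.3 and matplotlib 3.10.9, and were tested on simulated data.

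The members, gene lists and motifs were chosen with earlier results of these data known. Named were the 12 highest-scoring TRBS with fold of at least 5 and under 50% masked bases, the 3 highest of the rest, the 6 farthest (of which 1 is not reported here), 3 on each side of 100 kb, 8 with DR4 of at most 1 mismatch (none on chromosome 18), 6 in lncRNA genes and 6 in introns, the 10 genes nearest to most sites (Pik3r1, tied with the last, was added), the 6 genes, deserts and lncRNA genes holding most (each gene counted for every site inside it, with Dab2ip, Rgs6, the Ctnna3 desert and 2610035D17Rik, tied with the last), and up to 6 members per list. Ppargc1a's and Klf9's further sites, the space between Bcl6 and Lpp and the sites on functional elements were chosen after their values were seen. Alternatives were other gene starts, limits of 50 and 200 kb, score limits of 60 and 100, the filter, 1 peak per run, other motif, desert, masking and neighbour settings. GC-restricted peaks, RefSeq starts, removal of TRBS within 1 kb of a TSS and removal of the Gm20388 record were added after seeing the data.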

Additional observations from a re-analysis of the deposited data

Results flagged for a closer look

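The sex chromosomes were outside the comparisons. On chromosome X, 11 of 57 TRBS lay over 100 kb from a coding TSS, with 6 to 35 fragments, and 6 of them had a score of at least 60. On chromosome Y, 11 of 15 did, with 7 to 107 fragments, and 8 had a score of at least 60. Both were noted because they are signals in data that the report does not use.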

How the results depend on the processing

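No paired analysis was possible because there was 1 ChIP and 1 input library. Of 96 alternatives, 62 kept direction, side of the threshold and size. A limit of 50 or 200 kb gave 1571 or 320 distant TRBS (31.2% or 6.36% of autosomal TRBS), a density ratio of 0.331 or 0.167, and 46.9% or 30.3% inside coding genes. At 200 kb 18.4% were in lncRNA genes and 55.9% in deserts. With every coding transcript start, 13.9% of TRBS were distant, 34.8% of them in coding genes and 34.2% in deserts; deserts of at least 1 Mb held 12.1%. The DR4 share was 41.7% at a score of at least 100, 7.74% with 1 mismatch, 73.4% with 3, and 31.1% within 100 bp of the summit. Another summit within 50 kb was found for 46.6%. The DR4 difference passed at a score of at least 60 (4.69 points) or 100 (5.90), at 50 kb (3.43), after the filter on fold and repeats (4.59) and within 100 bp (4.67), but was 2.46 at 200 kb, 0.562 with 1 mismatch, 0.822 with 3, 2.75 without TRBS within 1 kb of a TSS and 0.492 at 45 to 55% GC. The C/EBP difference failed at 200 kb (3.82) and at 45 to 55% GC (1.65). The difference in scores of at least 60 was −1.07 points at 200 kb and passed after the filter (3.56), which itself removes low scores. The repeat difference was −0.992 at a score of at least 60 and passed at 200 kb (5.90) and with at least 50% of the peak masked (2.79). The EBF difference, never past the threshold, was −1.21 at 200 kb, −0.633 with 1 peak per run and −0.172 within 100 bp. The causes were not tested. With a median of 17 fragments, single weak sites are the least certain.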
